A study of Homo sapiens with 15 samples.

Results

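The lysosome is the acidic compartment in which cells break down protein, lipid and sugar chains, and 43 genes that build, acidify or feed it were followed here in MDA-MB-468 cells, a triple-negative human breast cancer line with very high expression of the epidermal growth factor receptor (EGFR). The genes were taken by symbol and matched to the Ensembl identifiers of a table of 61552 genes. They comprised 19 hydrolases, 8 genes of the lysosomal membrane, its lipid transport and enzyme cofactors, 6 genes of the proton pump, 8 autophagy genes and the 2 transcription factors TFEB and TFE3. All 43 passed the filter on low counts.

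Lysosomal hydrolases are made in the endoplasmic reticulum and sorted to the lysosome, where most of them work at the low pH that the vacuolar proton pump (V-ATPase) maintains. Autophagy encloses cytoplasm in a double membrane and delivers it to the same compartment. TFEB and TFE3 are MiT-family transcription factors that bind E-box sequences in many of these genes, known as CLEAR elements, and are held in the cytoplasm by mTORC1 when nutrients and growth factors are plentiful. Activated EGFR is itself sorted into endosomes and degraded in lysosomes.

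The study asked how EGFR in the nucleus and EGFR kinase activity each shape transcription, using RNA sequencing of 5 groups of 3 libraries. In the drug experiment, cells were serum starved for 12 h and then kept for 12 h in 10 ng/mL EGF alone (EGF), in EGF with 10 µM cSNX1.3, a peptide that blocks the interaction of EGFR with Sorting Nexin 1 and lowers nuclear EGFR (cSNX), or in EGF with 15 µM erlotinib, an inhibitor of the EGFR tyrosine kinase (ERL). In the line experiment, endogenous EGFR was knocked down with an IPTG-inducible short hairpin RNA delivered by lentivirus, and a GFP-tagged EGFR was put back, either wildtype (shEGFR-WT) or with basic residues of its nuclear localization sequence changed to aspartic acids (shEGFR-NLS). Each arm of the line experiment is 1 engineered line, so a difference between the arms includes whatever else sets those lines apart. The dose and time of EGF in the lines were not given in the sources used here. No source says that replicates came from separate cultures, and p-values then measure only the spread between these libraries.

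Libraries held 22915676 to 35900649 counts. EGFR itself stood at 4890, 4200 and 4950 CPM (counts scaled to a common library total) in EGF and at 4520, 4970 and 4550 CPM in ERL. In cSNX it was at 5660, 6450 and 6120 CPM, above every other drug library. On the log2 scale, cSNX was higher by 0.38 ± 0.11 (SE) than ERL (adjusted p = 0.0102) and by 0.38 ± 0.11 than EGF (adjusted p = 0.0622). In the lines EGFR stood at 1440, 1170 and 1470 CPM in shEGFR-WT and at 1710, 1780 and 1770 CPM in shEGFR-NLS. Thus shEGFR-NLS was higher by 0.37 ± 0.09 (adjusted p = 0.00367). The part of EGFR level in the differences between groups or lines was not tested. The deposited counts do not separate the hairpin-targeted endogenous transcript from the re-expressed one. Epithelial markers were high in every library (EPCAM 331 to 482 CPM), and the oestrogen receptor gene ESR1 was at 2.75 to 8.53 CPM. PGR and NCR1 had 0 counts in all 15 libraries. Of the leukocyte genes, PTPRC had at most 7 counts, while CD14 was at 8.99 to 42.5 CPM. The fibroblast gene COL1A1 was at 8.42 to 21.1 CPM, while COL1A2 had at most 2 counts.

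Throughout, a gene was called when its Benjamini-Hochberg adjusted p over all genes tested was under 0.05 in edgeR's quasi-likelihood test. Levels are CPM after TMM scaling within an experiment, so levels in the drug libraries and in the lines were not set against each other. In bulk RNA, less RNA per cell and fewer cells of a type cannot be told apart.

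The 43 genes covered a wide range of levels. Per kilobase of exon, PSAP, which encodes the precursor of the saposins that help lipid hydrolases reach their substrates, was highest in the EGF group at 226.7 ± 29.0 CPM per kb (SD, n = 3). The proton pump gene ATP6V0E1 followed at 160.7 ± 24.4 CPM per kb and the tetraspanin gene CD63 at 130.7 ± 22.2 CPM per kb, and the mean ± SD ranges of ATP6V0E1 and CD63 overlapped while that of PSAP lay above both. LAMP1, the major lysosomal membrane glycoprotein, came next at 71.8 ± 4.76 CPM per kb, below the range of CD63. At the other end of the scale were CTSS at 1.20 ± 0.138 CPM per kb, HEXA at 0.940 ± 0.0553 CPM per kb and CTSK at 0.290 ± 0.0798 CPM per kb. The ranges of these 3 hydrolase genes did not overlap. Lengths are the union of all annotated exons, so genes with many isoforms, such as HEXA, appear lower on this scale.

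CLEAR elements are the sequence feature that links many of these genes. RefSeq (GRCh38.p14) promoters, running from 250 bases before the start site to 50 after, were at hand for 31 of the 43 genes. The E-box CACGTG, which reads the same on both strands, occurred in 9 of the 31 genes (29.0%) and in 8.77% of all 27305 genes with a promoter. Its longer form TCACGTGA, also the same on both strands and always holding a CACGTG, occurred in 5 genes (16.1%, against 1.18% of all genes): LAMP1, GAA, MCOLN1, CTSA and ATP6V0D1. With a G before and a C after, the 10-base CLEAR consensus occurred in GAA and MCOLN1 (6.45%, against 0.421%). The following 4 promoters are printed 5′ to 3′ on the strand of the gene with each CACGTG in capitals, because they are 4 of the 5 that hold TCACGTGA and their genes differed in their calls. They cover chr13:113297039-113297268 (LAMP1, plus strand), chr17:80101481-80101610 (GAA, plus strand), chr19:7522524-7522653 (MCOLN1, plus strand) and chr16:67481128-67481257 (ATP6V0D1, minus strand), each ending 29 bases past the start site.
LAMP1: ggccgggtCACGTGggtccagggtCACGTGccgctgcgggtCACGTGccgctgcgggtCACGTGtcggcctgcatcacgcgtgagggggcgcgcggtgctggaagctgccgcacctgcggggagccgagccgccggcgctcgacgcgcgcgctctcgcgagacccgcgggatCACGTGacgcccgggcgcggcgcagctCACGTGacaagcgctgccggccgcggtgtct
GAA: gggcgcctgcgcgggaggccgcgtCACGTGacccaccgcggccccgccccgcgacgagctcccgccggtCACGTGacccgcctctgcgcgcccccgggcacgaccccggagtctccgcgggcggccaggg
MCOLN1: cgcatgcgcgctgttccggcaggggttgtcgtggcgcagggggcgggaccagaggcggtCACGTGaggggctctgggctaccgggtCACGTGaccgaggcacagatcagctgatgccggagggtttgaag
ATP6V0D1: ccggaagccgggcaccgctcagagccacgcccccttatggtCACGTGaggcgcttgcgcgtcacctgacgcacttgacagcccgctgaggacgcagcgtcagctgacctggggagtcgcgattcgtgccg

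LAMP1 held 6 copies of CACGTG, 4 of them at near-regular spacing between positions -192 and -142, counting the start site as 0, and 2 in the longer form at -28 and -1. GAA held its matches at -76 and -31, MCOLN1 at -41 and -14, and ATP6V0D1 at -59. The remaining E-box holders were CTSA, CTSF with 2 copies, and CTSD, NEU1 and CD63 with 1 each. For CD63, only 1 of several listed start sites had the match. A match describes these letters only and is not a measured binding site.

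**Figure D1:**
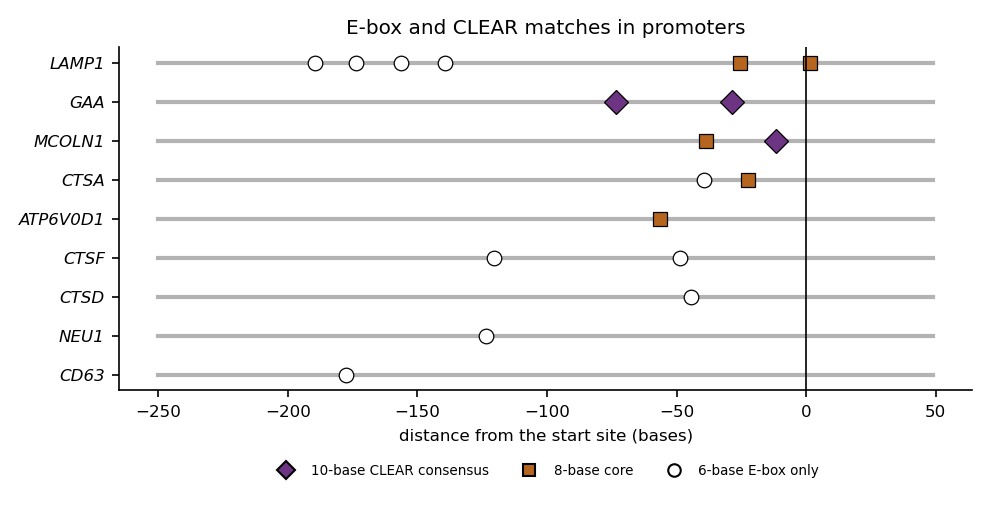
Positions of E-box and CLEAR matches in the promoters of the 9 genes that hold one, as distance in bases from the RefSeq start site (vertical line at 0). For CD63 this is the listed start site whose promoter holds the match. Grey bars span the searched window. Diamonds mark the 10-base consensus (GAA and MCOLN1), squares the 8-base core and open circles the 6-base E-box alone; LAMP1 has the most matches, 6.

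Erlotinib moved more of these genes up than down. In ERL against EGF, 23 of the 43 genes were called, 18 higher and 5 lower. Over all 15738 genes tested, 44.0% were called, 22.8% higher and 21.2% lower, so the called share of these genes (53.5%) was not far above the background while its direction was uneven (41.9% higher, 11.6% lower). The 43 genes were chosen with earlier results of these data known. How far that choice shaped their called shares, here and in the comparisons below, was not tested. The median log2 fold change was 0.20 for the 43 genes and 0.01 for all genes. Hydrolases accounted for 10 of the genes that rose, and none of the 6 proton pump genes was called.

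**Figure D2:**
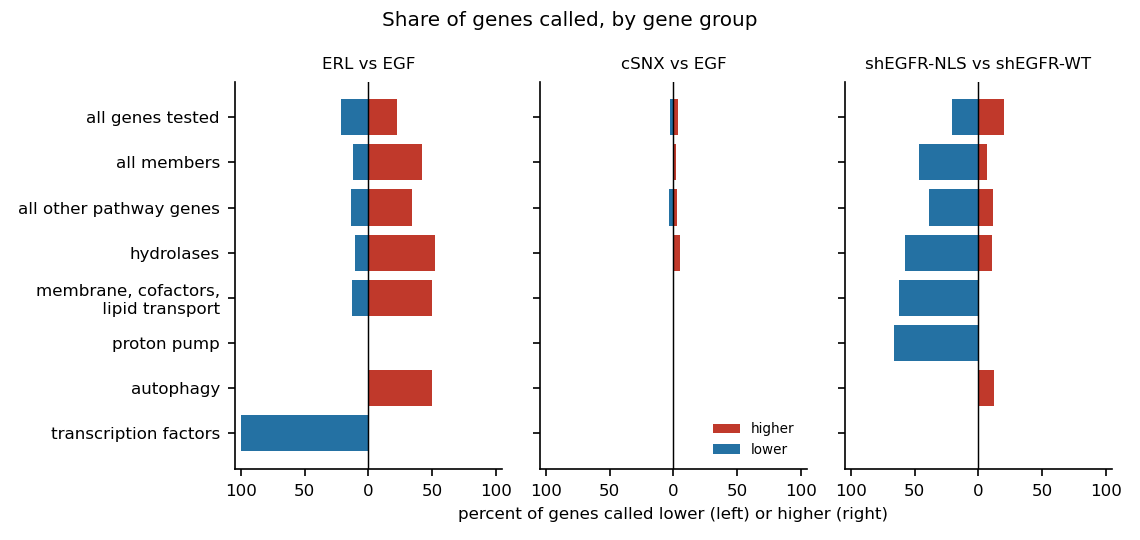
Percent of genes called lower (blue, leftward) and higher (red, rightward) in each comparison for all genes tested, all 43 members, the other pathway genes and the 5 role groups; the transcription factor bar rests on 2 genes. With ERL 52.6% of hydrolases were called higher, and in shEGFR-NLS 57.9% were called lower.

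Cathepsin F and cathepsin S, papain-family cysteine proteases, showed the largest increases with erlotinib. CTSF (ENSG00000174080, chr11:66563464-66568879, minus strand) stood at 22.0, 26.6 and 22.8 CPM in EGF and at 52.7, 51.2 and 56.2 CPM in ERL. The groups did not overlap, and the level rose 2.24-fold (log2 fold change 1.16 ± 0.10 SE, adjusted p = 1.43e-07). CTSS (ENSG00000163131, chr1:150730079-150765957, minus strand) stood at 7.22, 8.54 and 9.08 CPM in EGF and at 12.8, 19.5 and 19.3 CPM in ERL. ERL replicate 1 was the lowest of its group and still above every EGF library, and CTSS rose 2.07-fold (1.05 ± 0.17, adjusted p = 0.000116).

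Cathepsin L and the hexosaminidase alpha subunit rose with less scatter. CTSL (ENSG00000135047, chr9:87724051-87731469, plus strand) was at 21.1, 21.5 and 20.7 CPM in EGF and at 36.7, 40.4 and 39.2 CPM in ERL, with no overlap. Its 1.83-fold rise corresponded to a log2 fold change of 0.88 ± 0.10 (adjusted p = 2.83e-06). HEXA (ENSG00000213614, chr15:72340924-72376420, minus strand), whose product trims the GM2 ganglioside, was at 14.9, 15.8 and 14.1 CPM in EGF and at 25.4, 24.9 and 24.4 CPM in ERL. These groups were also apart, and HEXA rose 1.67-fold (0.74 ± 0.10, adjusted p = 2.34e-05). Of HEXA's annotated exon bases, 13.2% are shared with an antisense RNA that was credited with 0 counts.

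Cathepsin B went the other way. CTSB (ENSG00000164733, chr8:11842524-11869533, minus strand), a cysteine protease like CTSL, was at 379, 445 and 374 CPM in EGF and at 254, 232 and 225 CPM in ERL. Every ERL library lay below every EGF library, and the level fell to 0.593 times that of EGF (-0.75 ± 0.10, adjusted p = 2.38e-05). CTSZ, cathepsin Z, also fell (-0.32 ± 0.10, adjusted p = 0.0149). That gene shares 31.7% of its exon bases with NELFCD on the opposite strand, and the counting did not use strand. NELFCD itself was credited with at most 17 counts in any library. How reads in shared exon bases were counted was not given in the sources used here. A low count for an overlapping gene, here and for the other overlaps named, thus does not show that the overlap was without effect.

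The other hydrolases that rose act on lipid, glycogen and peptides. SMPD1, the acid sphingomyelinase, rose by 0.67 ± 0.13 on the log2 scale and GAA, the acid alpha-glucosidase that degrades glycogen, by 0.65 ± 0.10. TPP1, tripeptidyl peptidase, rose by 0.56 ± 0.10, CTSH, an aminopeptidase, by 0.41 ± 0.10, LIPA, the acid lipase, by 0.30 ± 0.11 and ASAH1, the acid ceramidase, by 0.29 ± 0.09. The 7 hydrolases that were not called had log2 fold changes between -0.33 (CTSK) and 0.13 (GUSB), with standard errors of 0.08 to 0.30. Among them, CTSD and CTSA, at 0.03 ± 0.13 and 0.05 ± 0.10, were the closest to 0. CTSD shares 22.9% of its exon bases with a same-strand gene that was credited with at most 274 counts.

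**Figure D3:**
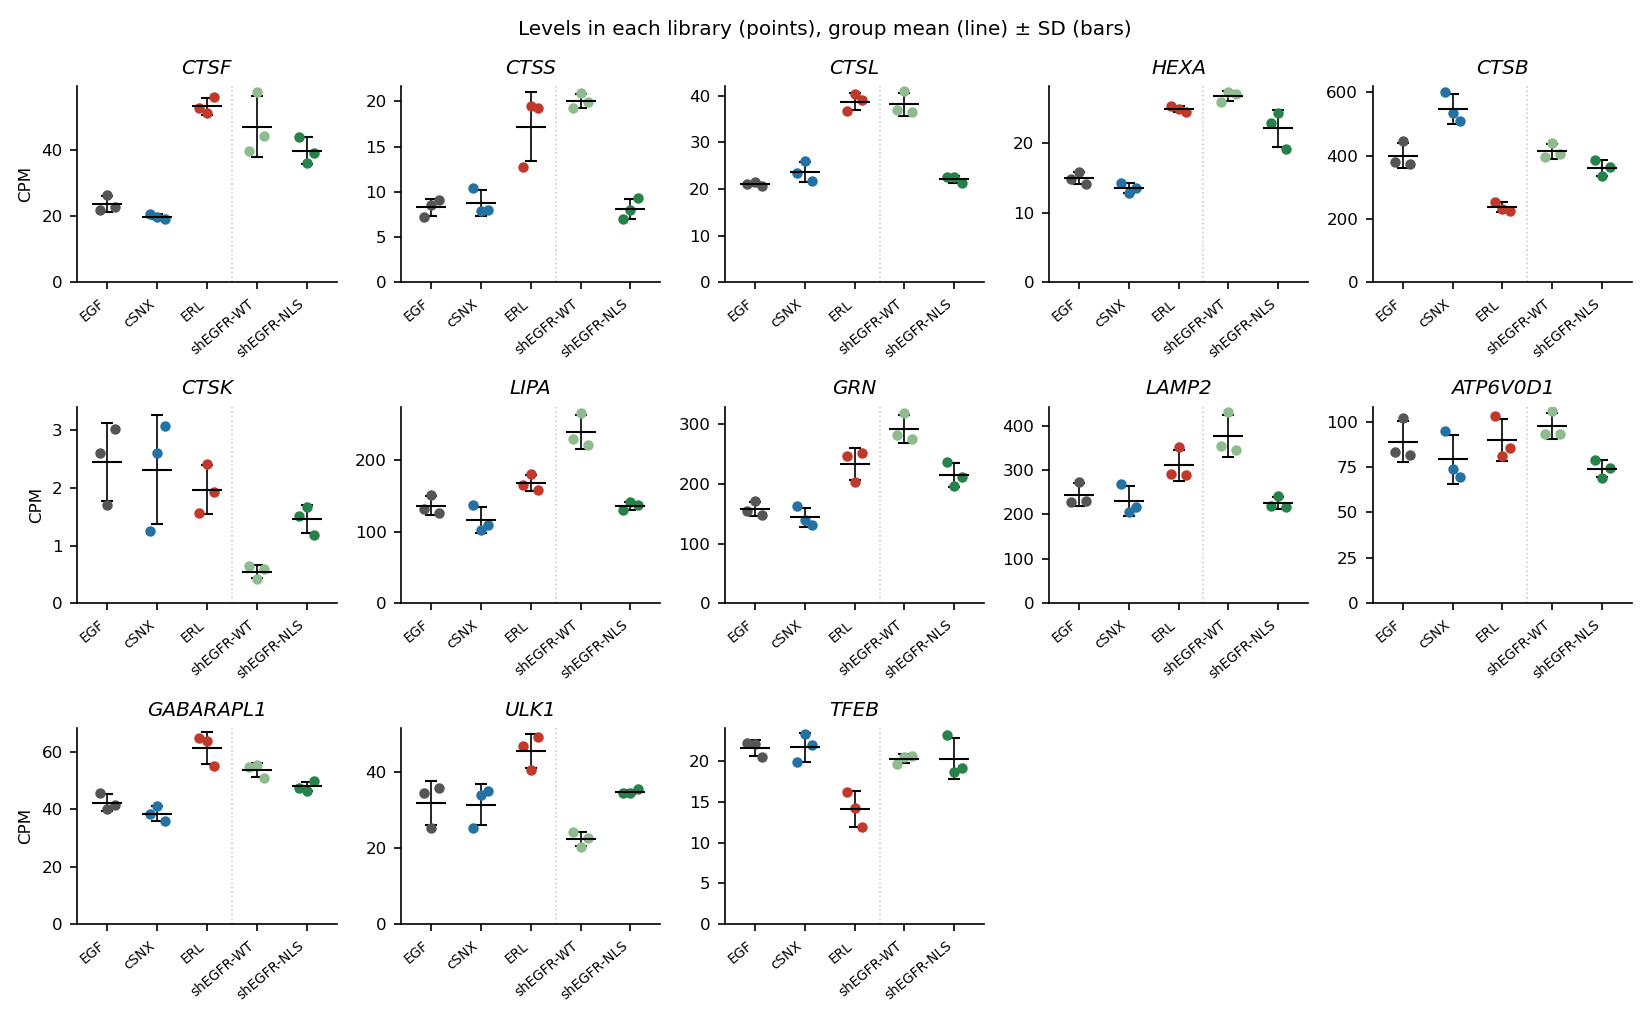
CPM in each library (points) with group mean (line) and SD (bars, n = 3) for 13 of the genes described by library; each panel has its own linear axis from 0, and the dotted line separates the drug libraries from the lines, which were scaled apart. CTSF, CTSS, CTSL and HEXA stand above EGF in all ERL libraries, CTSB below, and CTSS, CTSL, LIPA and LAMP2 stand lower in all shEGFR-NLS libraries than in shEGFR-WT.

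Of the 8 membrane, cofactor and lipid transport genes, 4 rose and 1 fell with erlotinib. GRN (ENSG00000030582, chr17:44345246-44353106, plus strand), which encodes progranulin, a secreted and lysosomal glycoprotein, was at 154, 171 and 148 CPM in EGF and at 247, 203 and 251 CPM in ERL. ERL replicate 2 was the lowest of its group but above all EGF libraries, and GRN rose 1.48-fold (0.57 ± 0.11, adjusted p = 0.000466). PSAP rose by 0.37 ± 0.12, LAMP2, a membrane glycoprotein needed for fusion of autophagosomes with lysosomes, by 0.35 ± 0.12 and NPC1, the cholesterol exporter of the lysosome, by 0.28 ± 0.08. CD63, which marks late endosomes and exosomes, fell by 0.43 ± 0.13. LAMP1 (0.10 ± 0.10), the calcium channel gene MCOLN1 (0.22 ± 0.16) and the soluble cholesterol carrier NPC2 (-0.16 ± 0.10) were not called.

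No proton pump gene was called with erlotinib in edgeR or in DESeq2, and 0 of the 6 had an unadjusted p under 0.05. Their log2 fold changes ran from -0.19 (ATP6V0E1) to 0.20 (ATP6V1H) with standard errors of 0.10 to 0.14. The pump is built of a membrane sector and a cytosolic ATP-hydrolysing sector, and members of both are in the list.

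Autophagy genes that moved with erlotinib moved up, 4 of 8. GABARAPL1 (ENSG00000139112, chr12:10212458-10223128, plus strand), an ATG8-family protein attached to autophagosome membranes, was at 45.5, 40.1 and 41.3 CPM in EGF and at 64.9, 63.8 and 54.9 CPM in ERL. The groups were apart and GABARAPL1 rose 1.45-fold (0.53 ± 0.10, adjusted p = 0.000337). ULK1 (ENSG00000177169, chr12:131894622-131923150, plus strand), the kinase that starts autophagosome formation, was at 34.5, 25.3 and 35.7 CPM in EGF and at 46.9, 40.4 and 49.2 CPM in ERL. It rose 1.43-fold (0.52 ± 0.14, adjusted p = 0.0073), with replicate 2 the lowest library of both groups and no overlap. SQSTM1, the cargo receptor p62, rose by 0.39 ± 0.11 and GABARAPL2 by 0.27 ± 0.09. SQSTM1 shares 21.0% of its exon bases with MRNIP on the opposite strand.

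Among the autophagy genes not called, BECN1 (0.22 ± 0.09, adjusted p = 0.0638) and MAP1LC3B (0.22 ± 0.10, adjusted p = 0.0811) were both positive in sign, and WIPI1 and ATG9A were at -0.10 ± 0.09 and -0.11 ± 0.10. WIPI1 shares 24.4% of its exon bases with ARSG on the opposite strand. ATG9A shares 38.8% with a same-strand gene that was credited with at most 3 counts. MAP1LC3B has a near-identical relative, MAP1LC3B2, and reads of the pair could have been split between them. MAP1LC3B2 was called higher by 0.92 on the log2 scale (adjusted p = 0.0467), but at a very low level. It stood at 0.459 CPM in EGF and 0.863 CPM in ERL, beside 106 and 124 CPM for MAP1LC3B. The GABARAP family shares sequence as well, so counts of its members are less certain than those of single-copy genes.

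Transcripts of both transcription factors fell with erlotinib. TFEB (ENSG00000112561, chr6:41683978-41736259, minus strand) was at 22.2, 22.1 and 20.4 CPM in EGF and at 16.2, 14.2 and 11.9 CPM in ERL. All ERL libraries were below all EGF libraries, and the level fell to 0.653 times that of EGF (-0.61 ± 0.12, adjusted p = 0.000661). TFE3 fell by 0.34 ± 0.08 (adjusted p = 0.00339). Transcript level does not report the nuclear import of these factors, which was not measured here.

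Calls of 8 genes in ERL against EGF were lost when some single library was left out. LIPA was no longer called without ERL replicate 1 or 2 or EGF replicate 1 or 3 (adjusted p up to 0.15 over all alternatives), GABARAPL2 without ERL replicate 3 or EGF replicate 1 or 3 (up to 0.0927) and LAMP2 without ERL replicate 2 or EGF replicate 1 or 3 (up to 0.124). PSAP was lost without ERL replicate 3 or EGF replicate 1 or 3 (up to 0.0925), CD63 without ERL replicate 2 or 3 or EGF replicate 2 (up to 0.0733) and ASAH1 without EGF replicate 1 or 3 (up to 0.0733). CTSZ was lost without ERL replicate 2 (0.0682) and NPC1 without EGF replicate 3 (0.0595). With every library and the 0.05 threshold kept, GABARAPL2 alone was lost, when no filter on low counts was used. EGF replicate 2 had the highest summed level of the 43 genes in its group, 5730 CPM against 4980 and 4870, inside the 5440 to 5960 CPM of the ERL libraries.

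Few of these genes were called with cSNX1.3, and few genes of any kind. In cSNX against EGF, 1 of 43 was called, beside 6.07% of all genes (3.38% higher and 2.69% lower), and 7 more had an unadjusted p under 0.05. The share of all genes under that unadjusted threshold was not counted in any comparison, so such genes are not read as further changes. The median log2 fold change was -0.04, beside 0.00 for all genes. The called gene was CTSB, at 601, 534 and 508 CPM in cSNX and 379, 445 and 374 CPM in EGF. The groups did not overlap and CTSB rose 1.37-fold (0.46 ± 0.10, adjusted p = 0.0117), while it fell with erlotinib. The call was lost without EGF replicate 1 or EGF replicate 3, where the adjusted p reached 0.0811.

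Among the genes not called with cSNX1.3, the lowest value was that of SMPD1 (-0.40 ± 0.13, adjusted p = 0.0954), which stood at 15.4, 11.3 and 10.9 CPM in cSNX and at 15.6, 17.4 and 16.3 CPM in EGF. The SMPD1 groups did not overlap, and without cSNX replicate 1 its difference was -0.57 and was called (adjusted p = 0.0103), as was that of LIPA (-0.36, adjusted p = 0.0456). All 6 proton pump genes lay between -0.17 and -0.03, with standard errors of 0.10 to 0.14, and 0 of them had an unadjusted p under 0.05 or a call by DESeq2. The 8 autophagy genes lay between -0.14 and 0.11, again with 0 at an unadjusted p under 0.05 and 0 by DESeq2. TFEB, at 19.8, 23.3 and 21.9 CPM in cSNX, differed from EGF by 0.01 ± 0.12.

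Because both drug groups were compared with the same EGF libraries, the drugs were also set directly against each other. In cSNX against ERL, 26 of the 43 genes were called (60.5%, near the 56.1% of all genes). In cSNX, 6 were higher and 20 lower (46.5%), beside 27.6% of all genes higher and 28.5% lower. CTSB differed by 1.21 ± 0.10 (adjusted p = 7.92e-08), TFEB by 0.62 ± 0.12, CD63 by 0.58 ± 0.13, TFE3 by 0.51 ± 0.08, CTSZ by 0.42 ± 0.10 and GLA by 0.38 ± 0.11, all higher in cSNX. The lowest values were those of CTSF (-1.42 ± 0.10), SMPD1 (-1.07 ± 0.13), CTSS (-0.97 ± 0.17) and HEXA (-0.88 ± 0.10). In the proton pump, ATP6V1B2 (-0.34 ± 0.11) and ATP6V1H (-0.30 ± 0.10) were lower in cSNX than in ERL. Both calls were lost without cSNX replicate 2 or 3, and that of ATP6V1H also without ERL replicate 2 or 3, with adjusted p up to 0.0654 and 0.0835. The MCOLN1 call (-0.52 ± 0.16) was lost without cSNX replicate 2 (0.0714).

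**Figure D4:**
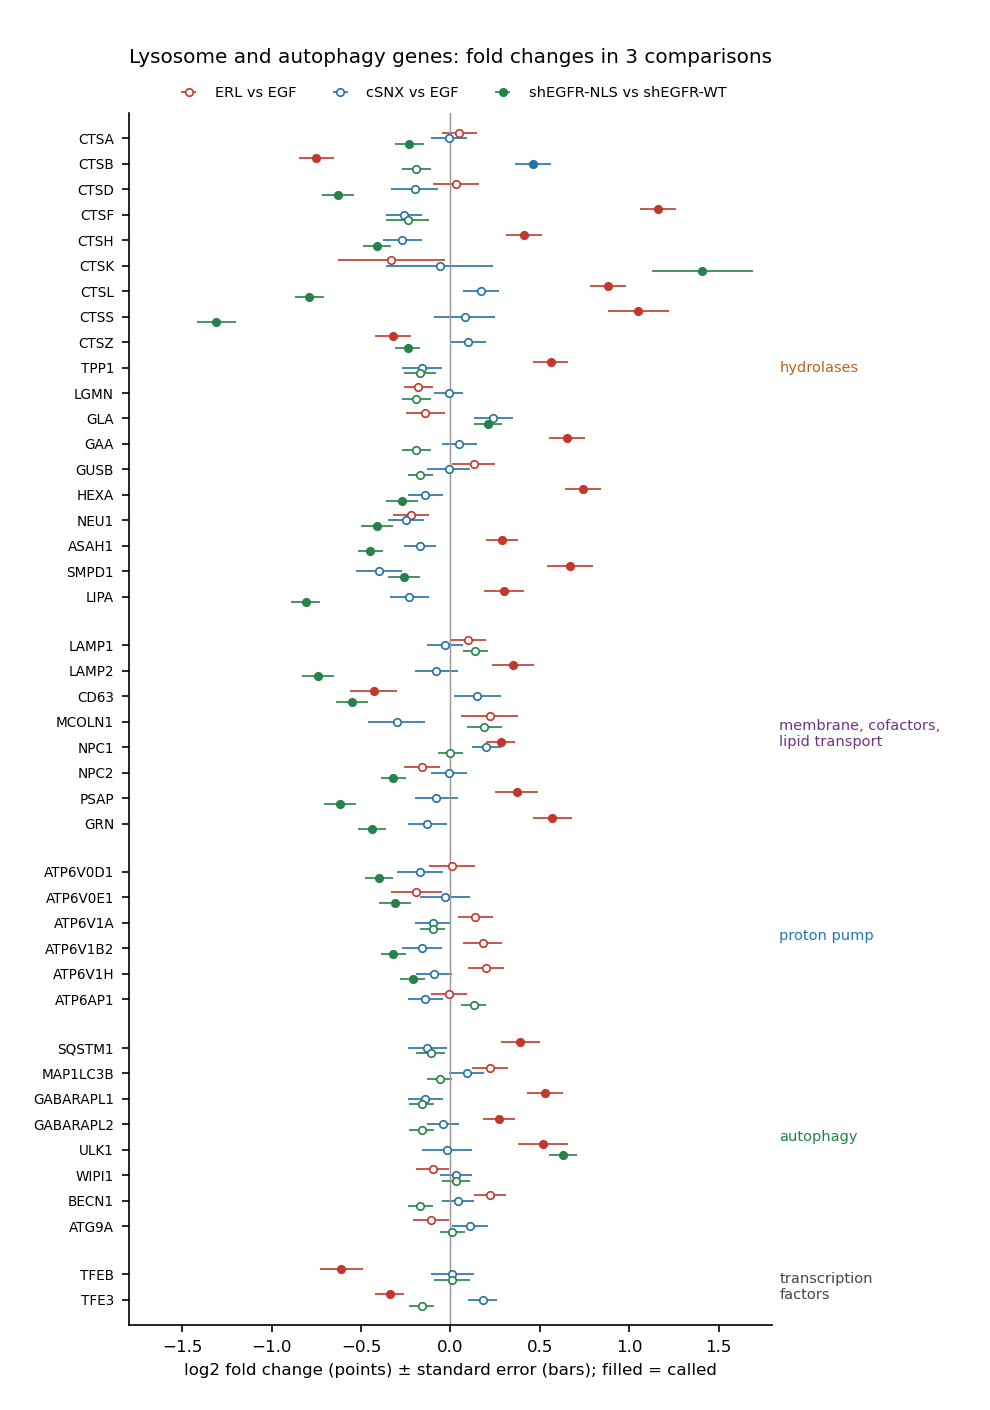
Log2 fold changes (points) with standard errors (bars) of all 43 genes in ERL against EGF (red), cSNX against EGF (blue) and shEGFR-NLS against shEGFR-WT (green), grouped by role; filled points were called. Red points lie mostly right of 0 and green points left of it for the hydrolases, and CTSB is the only filled blue point.

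The line with the mutated EGFR nuclear localization sequence had lower levels of many of these genes. In shEGFR-NLS against shEGFR-WT, 23 of 43 were called, 3 higher and 20 lower. Over 15805 genes tested, 41.4% were called, 20.4% higher and 21.0% lower, so here too the called share (53.5%) was not far above the background and the direction was uneven (46.5% lower). The limit from choosing the genes with earlier results known applies here as well. The median log2 fold change was -0.19 for the 43 genes and 0.01 for all genes. Summed over the 43 genes, the level was 6740, 7740 and 6640 CPM in shEGFR-WT and 5840, 5300 and 5530 CPM in shEGFR-NLS.

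Hydrolases made up 11 of the 20 genes that fell. CTSS was at 19.3, 20.9 and 19.9 CPM in shEGFR-WT and at 7.04, 8.01 and 9.32 CPM in shEGFR-NLS. The 3 mutant libraries were all far below the wildtype ones, and CTSS fell to 0.404 times the wildtype level (-1.31 ± 0.11, adjusted p = 9.02e-08). LIPA (ENSG00000107798, chr10:89213569-89414557, minus strand) was at 230, 266 and 221 CPM in shEGFR-WT and at 130, 141 and 138 CPM in shEGFR-NLS. These did not overlap either, and LIPA fell to 0.569 times the wildtype level (-0.81 ± 0.08, adjusted p = 4.18e-07).

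CTSL was at 37.0, 41.1 and 36.5 CPM in shEGFR-WT and at 22.5, 22.5 and 21.2 CPM in shEGFR-NLS. The mutant libraries were tightly grouped below the wildtype ones, and CTSL fell to 0.578 times the wildtype level (-0.79 ± 0.08, adjusted p = 9.84e-07). CTSD, the aspartic protease cathepsin D, fell by 0.63 ± 0.09, ASAH1 by 0.45 ± 0.07, CTSH by 0.41 ± 0.08 and the sialidase NEU1 by 0.41 ± 0.09. Smaller decreases were seen for HEXA (-0.27 ± 0.09), SMPD1 (-0.26 ± 0.09), CTSZ (-0.24 ± 0.07) and CTSA (-0.23 ± 0.08), the last encoding the protective protein that stabilizes NEU1. The CTSA libraries overlapped between the lines, at 141, 153 and 132 CPM in shEGFR-WT and 134, 115 and 116 CPM in shEGFR-NLS.

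A pair of hydrolases rose in the mutant line. CTSK (ENSG00000143387, chr1:150794880-150809577, minus strand), best known as the collagen-degrading protease of osteoclasts, was at 0.638, 0.419 and 0.588 CPM in shEGFR-WT and at 1.52, 1.67 and 1.19 CPM in shEGFR-NLS. The groups did not overlap and CTSK rose 2.66-fold (1.41 ± 0.28, adjusted p = 0.000707), but on only 13 to 21 counts a library in shEGFR-WT and 33 to 53 in shEGFR-NLS. CTSK thus had the largest fold change of the 43 genes between the lines and their lowest level per kilobase in every group. GLA, the alpha-galactosidase A gene, rose by 0.21 ± 0.08 (adjusted p = 0.0424), and DESeq2 did not call it.

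The membrane and cofactor genes that were called all fell, 5 of 8. LAMP2 (ENSG00000005893, chrX:120426148-120469365, minus strand) was at 353, 430 and 344 CPM in shEGFR-WT and at 218, 241 and 217 CPM in shEGFR-NLS. Replicate 2 was the highest library in both lines, without overlap between them, and LAMP2 fell to 0.60 times the wildtype level (-0.74 ± 0.09, adjusted p = 3.88e-06). PSAP fell by 0.62 ± 0.09, CD63 by 0.55 ± 0.09, GRN by 0.44 ± 0.08 and NPC2 by 0.32 ± 0.07. LAMP1 was at 0.14 ± 0.07 and was not called (adjusted p = 0.146), MCOLN1 was at 0.19 ± 0.10 and NPC1 at 0.00 ± 0.07.

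In the proton pump, 4 of 6 genes fell. ATP6V0D1 (ENSG00000159720, chr16:67438014-67481181, minus strand), a subunit of the membrane sector, was at 93.4, 106 and 93.2 CPM in shEGFR-WT and at 79.1, 69.2 and 74.2 CPM in shEGFR-NLS. The lines did not overlap, and ATP6V0D1 fell to 0.760 times the wildtype level (-0.40 ± 0.08, adjusted p = 0.000598). ATP6V1B2 and ATP6V1H, of the cytosolic sector, fell by 0.32 ± 0.07 and by 0.21 ± 0.07, and ATP6V0E1, of the membrane sector, by 0.31 ± 0.09. ATP6V1A, the catalytic subunit, was at -0.10 ± 0.07 and the accessory subunit ATP6AP1 at 0.13 ± 0.07, neither of them called.

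Of the autophagy genes, ULK1 was called and rose, from 24.2, 20.4 and 22.7 CPM in shEGFR-WT to 34.5, 34.5 and 35.4 CPM in shEGFR-NLS. The groups were apart and the rise was 1.55-fold (0.63 ± 0.08, adjusted p = 1.5e-05). The 7 other autophagy genes lay between -0.17 (BECN1) and 0.03 (WIPI1), with standard errors of 0.07 to 0.08, and 3 of them had an unadjusted p under 0.05. TFEB was at 0.01 ± 0.10 and TFE3 at -0.16 ± 0.07 (adjusted p = 0.0788), so that 0 of the pair were called by edgeR or DESeq2 and 1 had an unadjusted p under 0.05.

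Of the 23 calls between the lines, 7 were lost when some single library was left out. GLA was lost without shEGFR-NLS replicate 2 or 3 or shEGFR-WT replicate 1 or 3 (adjusted p up to 0.171 over all alternatives), and ATP6V1H without the same libraries (up to 0.148). CTSA was lost without shEGFR-NLS replicate 2 or 3 or shEGFR-WT replicate 1 or 2 (up to 0.144), and SMPD1 without shEGFR-NLS replicate 2 or 3 or shEGFR-WT replicate 2 or 3 (up to 0.127). HEXA was lost without replicate 3 of either line (up to 0.167), CTSZ without shEGFR-NLS replicate 2 or 3 (up to 0.0999) and ATP6V0E1 without shEGFR-NLS replicate 3 (up to 0.0827). With every library kept, 6 of the 23 calls (the same genes without HEXA) were lost in a fit of all 15 libraries.

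The erlotinib and NLS-mutation effects, which share no library, were then set side by side. A set of 10 genes rose with erlotinib and fell in the mutant line: CTSH, CTSL, CTSS, HEXA, ASAH1, SMPD1, LIPA, LAMP2, PSAP and GRN. In all 10 the difference between the effects was also called, as an interaction term over the 15 libraries together. Opposed calls in the same libraries all but ensure this, so it adds little support for the set. The combination of the 3 calls was met by 23.3% of the 43 genes, beside 6.84% of 15216 genes tested in every fit. Because the 43 genes were chosen with earlier results of these data known, this gap is not independent support for the set. The mirror combination, lower with erlotinib and higher in the mutant, was met by 0 of the 43 and by 6.22% of those genes. Of the 10 genes, CTSH, CTSL, CTSS and GRN kept all 3 calls whichever single library of the 4 groups was left out, and 6 lost one. The set fell to 6 genes without EGF replicate 1 or EGF replicate 3, where ASAH1, LIPA, LAMP2 and PSAP were lost, and it held 8 to 10 genes when any other single library was left out.

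Over all genes, the difference was called for 44.7%, and for 25 of the 43 (58.1%). Of these, 21 were lower in the NLS effect than in the erlotinib effect and 4 higher (CTSB, CTSK, GLA and TFEB). The share of all genes in each direction was not counted for this difference. Its median was -0.29 for the 43 genes and 0.02 for all genes. The widest gaps were those of CTSS (-2.34 ± 0.21, adjusted p = 2.32e-08), CTSK (1.75 ± 0.43, adjusted p = 0.00233) and CTSL (-1.66 ± 0.12, adjusted p = 8.05e-10). CTSF followed at -1.39 ± 0.16 and LIPA at -1.10 ± 0.15. The calls for GLA (0.36 ± 0.14, adjusted p up to 0.102) and NPC1 (-0.27 ± 0.11, up to 0.154) were lost without most single libraries. For GLA these were shEGFR-NLS replicate 2 or 3, shEGFR-WT replicate 1 or 3, any ERL replicate and EGF replicate 2. For NPC1 they were shEGFR-NLS replicate 2 or 3, any shEGFR-WT replicate, ERL replicate 1 or 3 and EGF replicate 1 or 3.

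A few genes moved in the same direction in both. ULK1 rose in both comparisons and CTSZ and CD63 fell in both, and for these 3 the difference between effects was small against its error (0.13 ± 0.17, 0.09 ± 0.13 and -0.10 ± 0.18). Of the 7 genes that rose with erlotinib and were not called between the lines (CTSF, TPP1, GAA, NPC1, SQSTM1, GABARAPL1 and GABARAPL2), all 7 had a called difference. Of the 8 that fell in the mutant line and were not called with erlotinib, CTSD, ATP6V1B2 and ATP6V1H had one, and CTSA, NEU1, NPC2, ATP6V0D1 and ATP6V0E1 did not. Across the 43 genes the effects were weakly related (Pearson r = -0.33, Spearman rho = -0.28, a description over genes that are not independent replicates).

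**Figure D5:**
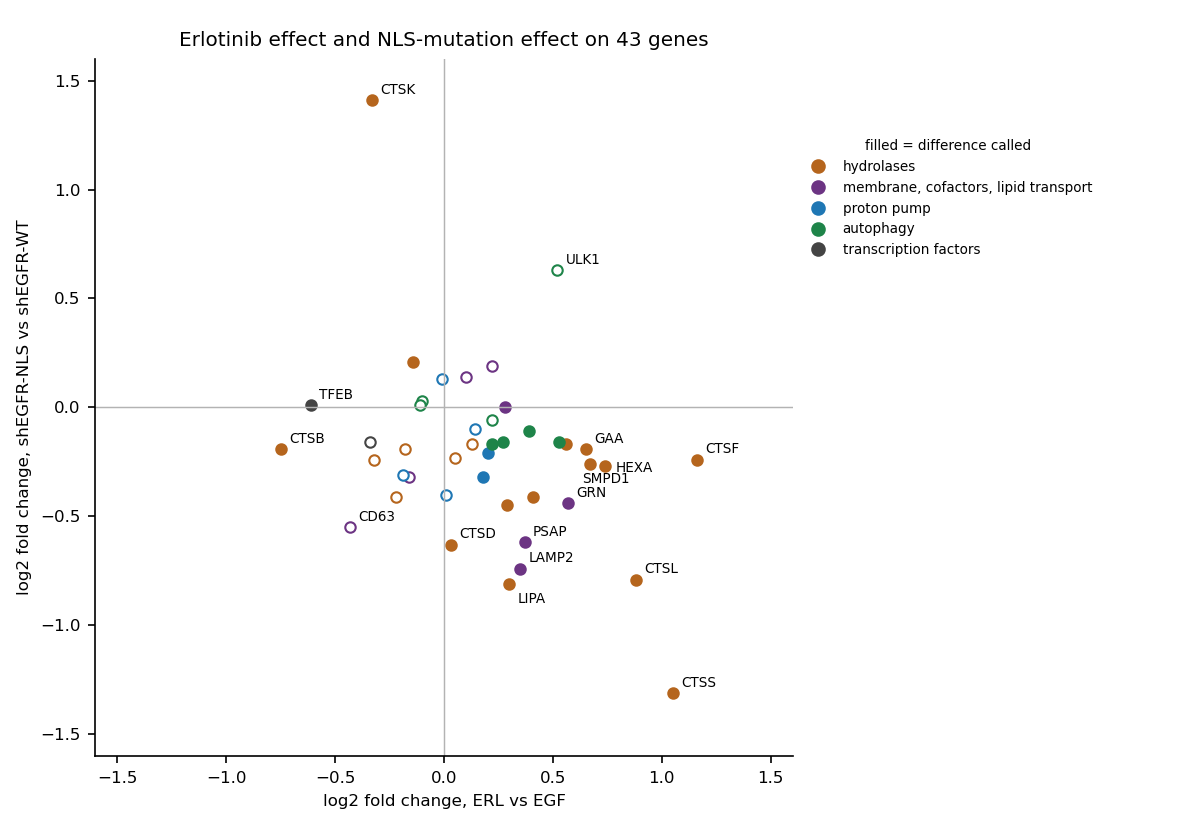
Log2 fold change with ERL against EGF (x axis) plotted against that of shEGFR-NLS against shEGFR-WT (y axis) for the 43 genes, coloured by role; filled points had a called difference between the effects. CTSS and CTSL lie at lower right, CTSK at top left, and ULK1 is at upper right with an open point.

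The calls were also read against the E-box matches. Of the 9 genes with a CACGTG, 2 rose (GAA and CTSF) and 1 fell (CD63) with erlotinib, and of the 22 genes with a promoter and no match 11 rose and 3 fell. In shEGFR-NLS, 5 of the 9 fell and 0 rose, beside 7 that fell and 2 that rose among the 22. Of the 5 genes with the longer TCACGTGA, GAA alone was called with erlotinib, while CTSA and ATP6V0D1 fell in the mutant line. LAMP1, with 6 E-boxes, and MCOLN1, with the 10-base consensus, were called in none of the comparisons with EGF or between the lines. These counts are small and no test was made of them.

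A wider set of 129 pathway genes outside the 43, also listed with earlier results of these data known, was counted in the same way. With erlotinib, 42 were higher and 17 lower of 123 tested (34.1% and 13.8%), with a median log2 fold change of 0.07. The 29 other hydrolases tested gave 15 higher and 6 lower, the 20 membrane and sorting genes 8 and 2, the 38 autophagy genes 13 and 3, the 17 other pump subunits 4 and 4, and the 19 MiT and mTORC1-regulator genes 2 and 2. CTSO, cathepsin O, rose most, from 8.54 ± 1.34 to 28.1 ± 4.23 CPM (SD, n = 3; 1.71 ± 0.14, adjusted p = 1.33e-07). CTSV, a close relative of CTSL, went from 36.7 ± 3.13 to 12.7 ± 1.11 CPM (-1.53 ± 0.12, adjusted p = 4.84e-08). BNIP3, a mitophagy receptor, went from 109.7 ± 10.6 to 40.7 ± 2.38 CPM (-1.43 ± 0.10, adjusted p = 2.14e-08).

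With cSNX1.3, 4 of the 123 were higher and 4 lower, a share of 6.5% beside 6.07% of all genes. ATP6V0D2, a tissue-restricted pump subunit, went from 28.8 ± 1.73 to 18.3 ± 0.392 CPM (-0.66 ± 0.11, adjusted p = 0.00143). ATG16L1, which directs lipidation of ATG8 proteins, went from 46.7 ± 1.40 to 70.6 ± 6.04 CPM (0.60 ± 0.09, adjusted p = 0.000545). CTSV, which had fallen with erlotinib, rose to 53.5 ± 7.04 CPM (0.54 ± 0.11, adjusted p = 0.0063).

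Between the lines, 14 of the 123 were higher and 48 lower, with a median of -0.16. The other hydrolases gave 2 higher and 16 lower of 29, and the other autophagy genes 2 higher and 19 lower of 38, beside 1 higher and 0 lower among the 8 autophagy genes of the 43. The other pump subunits gave 5 higher and 4 lower of 17. CTSV went from 181 ± 10.8 CPM in shEGFR-WT to 70.8 ± 9.84 CPM in shEGFR-NLS (-1.35 ± 0.09, adjusted p = 6.05e-09). FUCA1, the alpha-fucosidase gene, went from 56.5 ± 7.17 to 29.5 ± 0.861 CPM (-0.94 ± 0.09, adjusted p = 4.11e-07), and ARSA, arylsulfatase A, from 35.1 ± 4.19 to 19.6 ± 1.27 CPM (-0.84 ± 0.10, adjusted p = 2.99e-06).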

How the data were processed

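RNA was extracted and poly(A) libraries made by Azenta Life Sciences, and 15 libraries of MDA-MB-468 cells were used. The authors trimmed reads with TrimGalore, aligned them to GRCh38 (hg38) with STAR and deposited whole-number counts per Ensembl gene, made with featureCounts as paired-end and not strand specific; the annotation release was not given in the sources used here. Groups and replicate numbers came from the sample titles, and doses from the methods of the study.

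Counts were fitted as deposited in edgeR 4.0.16 (R 4.3.3) with TMM factors, filterByExpr by group and the robust quasi-likelihood test, with Benjamini-Hochberg adjustment over all genes tested and a threshold of 0.05. One fit took the 9 drug libraries, one the 6 line libraries, and one all 15 for the difference between effects; each standard error is the log2 fold change divided by the square root of its F. The procedure was tested on simulated data. Alternatives were DESeq2 1.42.0, its size factors, other filters (none, or 10 counts in every library), a threshold of 0.01, a replicate block, other sample sets and leaving out each library. Total counts limit precision for low genes such as CTSK. Exon lengths and positions came from GENCODE 44, which matched 61399 of 61552 identifiers; promoters came from RefSeq.

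The members and lists were chosen with earlier results of these data known. Values by library are given for the 5 called members with the largest change in ERL against EGF, cSNX against EGF and the lines, and for the called member with the smallest p of each role group, and group means for the 3 other pathway genes with the largest called change at a mean of at least 1 CPM. CTSA and SMPD1, outside that rule, were given by library after their values were seen. MAP1LC3B2, at a mean below 1 CPM, was named as the relative of MAP1LC3B. Replicate libraries differed by more than sampling noise.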

Additional observations from a re-analysis of the deposited data

How the results depend on the processing

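No call of a member changed direction under any alternative tried. With a threshold of 0.01, 15 of the 43 genes were called in ERL against EGF and 0 in cSNX against EGF. Shares of all genes under each alternative are not given here. Changes in the counts of this section are therefore not read as particular to the 43 genes. In cSNX against EGF, 2 genes were called without a filter on low counts and 2 in a fit of all 15 libraries, CTSB and SMPD1 both times; leaving out 1 library gave 0 (without EGF replicate 1 or 3) to 3 (without cSNX replicate 1). Leaving out 1 library gave 17 to 24 called genes in ERL against EGF, 16 to 26 between the lines, 23 to 29 in cSNX against ERL and 23 to 26 for the difference between effects. Over all alternatives, 15 of 23, 16 of 23, 23 of 26 and 23 of 25 genes kept their call in these comparisons; the 1 call in cSNX against EGF was lost in some, and the cause was not tested. Same-numbered replicates did not as a rule deviate together (correlations of deviations from -0.43 to 0.46, the highest for replicate 3 of cSNX and EGF). The numbers were therefore not taken to pair samples. Some libraries with different numbers did, such as cSNX replicate 1 with EGF replicate 2 (r = 0.67). Others ran opposite, such as cSNX replicate 3 with EGF replicate 2 (-0.59). Deviations were taken from the mean of each group, so the values within a comparison are not separate observations. No term for such shared variation was fitted, and its source was not tested. A replicate block gave 23 called genes in ERL against EGF, 1 in cSNX against EGF and 19 between the lines. It gave 26 in cSNX against ERL and 26 for the difference. Under the block, GLA, ATP6V1H, CTSA and SMPD1 lost their calls between the lines. Depth limits CTSK most, at 13 to 85 counts a library.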
